A study of Mus musculus with 6 samples.

Results

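Klf1 and 5 genes of the red blood cell, Hbb-b2, Alas2, Slc4a1, Epb42 and Tfrc, were followed across the testes of 3 inbred mouse strains. Their 15 probe sets, of 45101 on the array, were chosen by annotation: a probe set counted only where the platform table listed that gene's symbol and no other. The genes themselves were selected on strain differences already seen in these arrays, so their levels and differences are given as a description with intervals and without p-values. Total RNA came from testes of C57BL/6, AKR/N and MRL/MpJ+/+ mice, all 8 weeks old and untreated. Biotin-labelled samples made from it were hybridised to 6 expression arrays, 2 arrays per strain. The design writes the MRL/MpJ strain as MRL/MpJ-+/+, and it is called MRL/MpJ from here on. The labels do not say whether RNA of several animals was combined on an array, so intervals and p-values measure the spread between these arrays.

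Klf1, also called erythroid Krüppel-like factor, is a zinc finger transcription factor of red cell precursors that binds CACCC-type DNA sequences and is needed for adult beta globin expression. Alas2 is the erythroid form of the first enzyme of haem synthesis, Slc4a1 (band 3) is the anion exchanger of the red cell membrane, and Epb42 (protein 4.2) ties that exchanger to the membrane skeleton. Tfrc is the transferrin receptor, which imports iron into red cell precursors and into many dividing cells. Hbb-b2 is an adult beta globin gene. Adult beta globin genes come as near-identical pairs, and the pair carried differs between inbred strains: C57BL/6 carries the haplotype of Hbb-bs and Hbb-bt, while Hbb-b1 and Hbb-b2 belong to another haplotype. Testis is not a site of adult red cell formation, but it holds circulating blood.

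The stretches of DNA just before the start sites are shown because Klf1 acts on such sequences in the globin and Alas2 genes. They are RefSeq sequences of build GRCm38.p6, 250 bases each, read 5′ to 3′ on the gene's strand and ending at the base before the start. Capitals mark CCNCNCCC, the extended site bound by Klf1, and GATAA, the core recognised by GATA factors, on either strand. The Klf1 window lies at chr8:84901732-84901981 (plus strand), the Alas2 window at chrX:150547167-150547416 (plus strand), the Hbb-bs window at chr7:103827929-103828178 (minus strand) and the Hbb-bt window at chr7:103813924-103814173 (minus strand).
Klf1: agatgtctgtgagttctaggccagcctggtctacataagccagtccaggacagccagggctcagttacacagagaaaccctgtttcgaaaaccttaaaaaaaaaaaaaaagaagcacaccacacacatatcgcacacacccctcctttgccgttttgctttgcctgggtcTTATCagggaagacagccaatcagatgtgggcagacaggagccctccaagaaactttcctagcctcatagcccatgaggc
Hbb-bs: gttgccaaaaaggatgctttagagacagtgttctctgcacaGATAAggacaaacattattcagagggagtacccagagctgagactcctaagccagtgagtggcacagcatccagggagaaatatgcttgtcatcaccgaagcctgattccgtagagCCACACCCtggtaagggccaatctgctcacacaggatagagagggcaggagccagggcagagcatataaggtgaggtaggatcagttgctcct
Hbb-bt: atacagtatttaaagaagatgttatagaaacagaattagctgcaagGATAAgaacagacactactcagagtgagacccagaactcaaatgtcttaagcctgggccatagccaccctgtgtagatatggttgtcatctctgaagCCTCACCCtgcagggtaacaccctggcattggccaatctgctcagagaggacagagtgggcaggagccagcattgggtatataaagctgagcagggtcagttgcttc
Alas2: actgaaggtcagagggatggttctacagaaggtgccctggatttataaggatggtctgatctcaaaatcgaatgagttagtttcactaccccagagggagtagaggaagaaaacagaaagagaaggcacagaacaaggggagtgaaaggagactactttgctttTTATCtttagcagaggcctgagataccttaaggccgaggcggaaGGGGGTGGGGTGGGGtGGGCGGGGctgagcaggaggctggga

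The Hbb-bs window held 1 match to CCNCNCCC, starting 93 bases before the start site, and the Hbb-bt window held 1, starting 107 bases before it. In the Alas2 window 4 matches began 42, 40, 35 and 26 bases before the start, of which the first 3 overlap. The Klf1 window held no CCNCNCCC, and its single CACCC began 114 bases before the start. CACCC lies inside many CCNCNCCC matches, so the motifs are not independent. GATAA occurred once in each of the 4 windows, in Klf1 80 bases before the start. These letters are common: among 32851 promoter windows of the same length, 45.9% held CCNCNCCC, 52.0% held CACCC and 22.6% held GATAA. The shorter core replaced AGATAA after the windows had been seen. AGATAA, held by 9.99% of all windows, occurred in the Hbb-bs and Alas2 windows and not in those of Klf1 or Hbb-bt. A match describes the reference sequence and was not tested as a binding site. RefSeq windows were also matched for Epb42 and Tfrc, and none was printed for Hbb-b2 or Slc4a1.

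The values are intensities in the authors' array units, in which every array has a trimmed mean of 125. A probe set was tested where at least 2 of the 6 arrays lay above that array's 40th percentile, 17.8 to 20.8 units, and 29692 probe sets were. Of the 15 member probe sets 6 were tested, for 4 of the 6 genes: Klf1, Hbb-b2, Alas2 and Tfrc. None for Slc4a1 or Epb42 passed. Differences are on the log2(intensity + 16) scale, which understates the change of dim probe sets. Replicate arrays correlated at 0.980 to 0.985 and arrays of different strains at 0.960 to 0.974. Defining markers of the labelled tissue were high, with summed spermatid markers at 31605 to 39217 units.

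Klf1 was low in C57BL/6 testis and high in both other strains. Its single probe set (1418600_at) read 32.5 and 33.4 units on the C57BL/6 arrays, 157 and 166 units on the AKR/N arrays and 147 and 153 units on the MRL/MpJ arrays. The C57BL/6 arrays lay far below the other 4, with no overlap. In linear units the AKR/N mean was 4.90 times and the MRL/MpJ mean 4.55 times the C57BL/6 mean.

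On the log2 scale Klf1 was higher by 1.86 in AKR/N (SE 0.125, 95% interval 1.58 to 2.13, n = 2 arrays per strain) and by 1.76 in MRL/MpJ (SE 0.125, 1.48 to 2.04) than in C57BL/6. These comparisons share the C57BL/6 arrays. Between MRL/MpJ and AKR/N the difference was -0.10 (-0.37 to 0.18), which is not beyond the spread. The order of Klf1 levels was therefore C57BL/6 lowest and the other strains above it, unresolved from each other. Klf1 ranked from the 52.0th percentile of an array's probe sets in C57BL/6 to the 80.4th where it was highest.

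**Figure D1:**
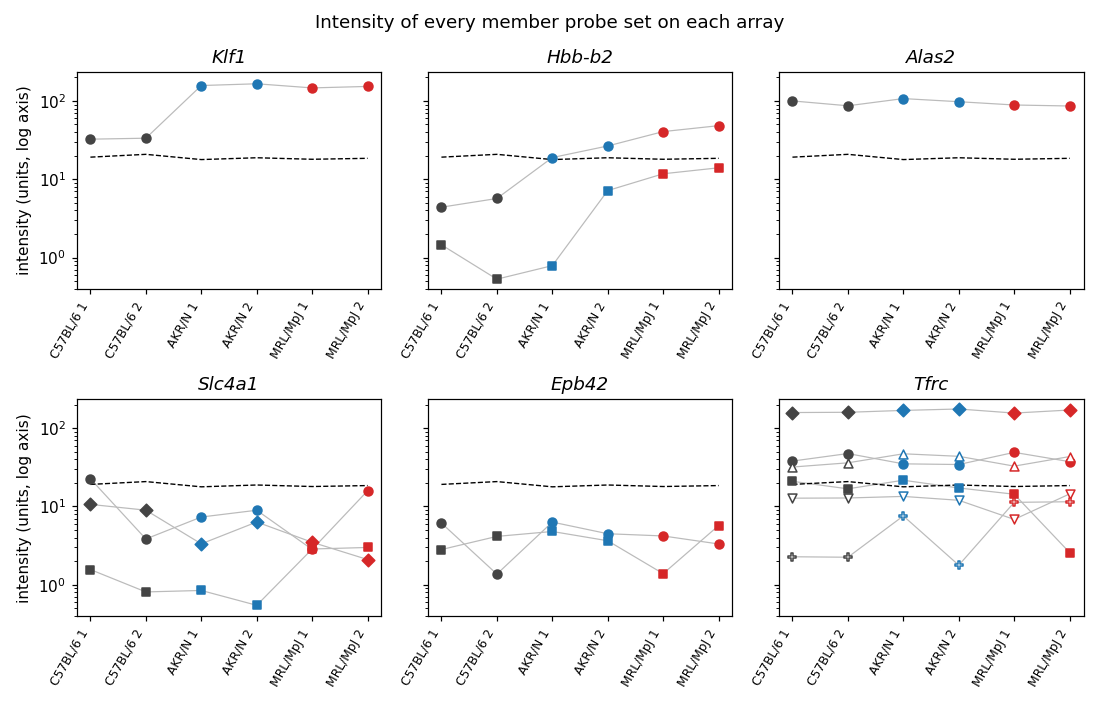
Intensity (array units, log axis) of all 15 member probe sets on each of the 6 arrays, grey for C57BL/6, blue for AKR/N and red for MRL/MpJ; each grey line joins 1 probe set, open symbols are array control probe sets and the dashed line is each array's 40th percentile. Klf1 steps up from 32.5 and 33.4 units in C57BL/6 to 147 units or more on the other 4 arrays, Alas2 stays between 86.1 and 107 units, and Epb42 lies below the dashed line throughout.

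The member closest to the oxygen-carrying product, Hbb-b2, was graded over the strains but dim. Its tested probe set (1427865_at) read 4.40 and 5.68 units in C57BL/6, 18.9 and 26.6 units in AKR/N, and 40.6 and 48.3 units in MRL/MpJ. The groups did not overlap, and both C57BL/6 arrays were below their 40th percentile. The log2 difference from C57BL/6 was 1.52 for MRL/MpJ (SE 0.244, 0.98 to 2.06) and 0.87 for AKR/N (0.33 to 1.42), and MRL/MpJ exceeded AKR/N by 0.65 (0.10 to 1.19). A second Hbb-b2 probe set (1427866_x_at) was dimmer, at 0.530 to 7.17 units in C57BL/6 and AKR/N and 11.7 and 14.0 units in MRL/MpJ. These fold sizes depend on the constant added before taking logarithms: the difference between MRL/MpJ and C57BL/6 ran from 0.65 with 64 units to 2.91 with 1 unit. Because C57BL/6 carries the other beta globin haplotype, sequence and amount cannot be told apart in this probe set.

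Alas2, the erythroid haem enzyme, showed no difference beyond the spread. Its probe set (1451675_a_at) read 100 and 86.7 units in C57BL/6, 107 and 97.7 units in AKR/N, and 88.7 and 86.1 units in MRL/MpJ, and the ranges of C57BL/6 and the other strains overlapped. The log2 differences were -0.08 for MRL/MpJ (-0.37 to 0.22) and 0.12 for AKR/N (-0.18 to 0.41) against C57BL/6, and -0.19 between MRL/MpJ and AKR/N (-0.49 to 0.10). The upper ends of the intervals against C57BL/6 lie well under the Klf1 differences.

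Tfrc was as level. Its brightest probe set (1452661_at) read 158 and 160 units in C57BL/6, 169 and 176 units in AKR/N, and 156 and 171 units in MRL/MpJ. The difference from C57BL/6 was 0.03 for MRL/MpJ (-0.20 to 0.27) and 0.10 for AKR/N (-0.13 to 0.34). A second probe set (1422966_a_at), at 34.3 to 49.1 units, and the third (1422967_a_at), at 2.58 to 21.6 units, had intervals that also spanned 0 in all 3 comparisons. The remaining 3 Tfrc probe sets are the array's control sets for the 3′, middle and 5′ parts of the transcript. The 5′ set, at 6.84 to 14.5 units, lay below the 40th percentile on every array, so the Tfrc 3′ to 5′ ratio is no measure of RNA integrity here. It was 2.50 and 2.81 in C57BL/6 and 3.00 to 4.79 on the other arrays. For actin the ratio was 1.52 to 1.78 and for Gapdh 0.677 to 0.827. Their part in the Klf1 values was not tested.

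The membrane genes gave little signal. Slc4a1 read 22.6 and 3.85 units in C57BL/6, 7.34 and 8.96 units in AKR/N, and 2.83 and 15.9 units in MRL/MpJ on its brightest probe set (1416464_at). Only 1 of these 6 arrays passed its own 40th percentile, and replicates differed more than strains. Its other probe sets lay at 0.548 to 3.00 units and at 2.10 to 10.6 units. Epb42 lay at 1.37 to 6.32 and 1.39 to 5.71 units on its 2 probe sets. At this signal no strain order of Slc4a1 or Epb42 can be read.

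As a count, 2 of the 4 tested member genes, Klf1 and Hbb-b2, were past the call rule of an adjusted p of 0.05 (limma, Benjamini-Hochberg) as higher in MRL/MpJ than in C57BL/6, where 6.06% of all 14477 tested genes did, and none as lower, where 6.08% did. The same number passed as higher in AKR/N than in C57BL/6, against 6.33% of all genes, and none as lower, against 5.45%. Between MRL/MpJ and AKR/N no member passed, and 3.65% of genes were higher and 5.05% lower. The genes were chosen on these contrasts, and Hbb-b2 passed the signal filter through AKR/N and MRL/MpJ, where it is high, so nothing is read from the counts.

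**Figure D2:**
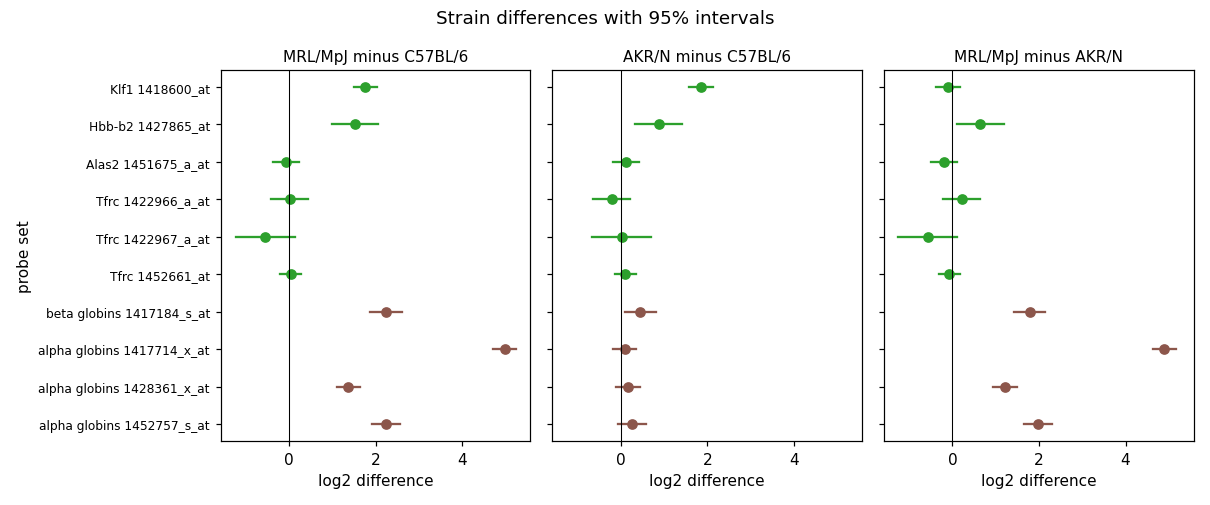
Log2 difference (points) with 95% interval (lines) for the 6 tested member probe sets (green) and 4 globin probe sets shared by several genes (brown), 1 panel per comparison, 2 arrays per strain. Klf1 is displaced to the right in both comparisons with C57BL/6 and lies at -0.10 between MRL/MpJ and AKR/N, where the shared globin probe sets lie between 1.21 and 4.89.

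The array also holds 4 globin probe sets that list several near-identical globin genes and so fall outside the rule. They were picked out after their values were seen, and no single gene can be named from them. The beta set (1417184_s_at, listed for Hbb-bt, Hbb-bs, Hbb-b2 and Hbb-b1) read 568 and 377 units in C57BL/6, 569 and 717 units in AKR/N, and 2398 and 2089 units in MRL/MpJ. Both MRL/MpJ arrays were above all others, while C57BL/6 and AKR/N lay close together. MRL/MpJ exceeded C57BL/6 by 2.23 (SE 0.164, 1.87 to 2.60) and AKR/N by 1.78 (1.42 to 2.15). AKR/N differed from C57BL/6 by 0.45 (0.09 to 0.81), which was not called, and by 0.16 to 0.74 over the alternatives.

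The alpha globin sets had the same order. The first of them (1452757_s_at, Hba-a2 and Hba-a1) read 722 and 486 units in C57BL/6, 664 and 765 units in AKR/N, and 3049 and 2673 units in MRL/MpJ. The differences were 2.24 for MRL/MpJ against C57BL/6 (1.91 to 2.57) and 1.98 against AKR/N (1.65 to 2.31). For AKR/N against C57BL/6 the difference was 0.26 (-0.07 to 0.59), and -0.02 to 0.54 over the alternatives. The 3 alpha sets disagreed in size: MRL/MpJ was 2.60, 4.74 and 50.6 times C57BL/6 in linear units. The set with the largest ratio (1417714_x_at) read 24.1 to 29.2 units in C57BL/6 and AKR/N and 1343 and 1246 units in MRL/MpJ. On those C57BL/6 and AKR/N arrays the other alpha sets read 486 to 934 units. The ratio of 50.6 is therefore not read as a change in the amount of alpha globin RNA.

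Klf1 and the shared globin sets differed in where the large step between strains fell: for Klf1 between C57BL/6 and the other strains, for the globin sets between MRL/MpJ and the others. AKR/N had a Klf1 mean of 161 ± 5.89 units (SD, n = 2) with a beta globin mean of 643 ± 105 units, whereas MRL/MpJ, with Klf1 at 150 ± 4.59 units, had a beta globin mean of 2243 ± 219 units. The 95% interval of the MRL/MpJ minus AKR/N difference was -0.37 to 0.18 for Klf1 and 1.42 to 2.15 for the beta set. Klf1 was higher on replicate 2 than on replicate 1 in all 3 strains, by 0.954, 8.33 and 6.50 units in C57BL/6, AKR/N and MRL/MpJ. The beta set was higher by 148 units in AKR/N but changed by -191 units in C57BL/6 and -310 units in MRL/MpJ. With 1 pair of arrays per strain and Klf1 differences this small, neither shared nor separate movement within a strain can be read. Since the Klf1 values form a low and a high cluster, no correlation over the 6 arrays is given for Klf1 with red cell genes. In whole testis, fewer cells of a type and less RNA per cell cannot be told apart.

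**Figure D3:**
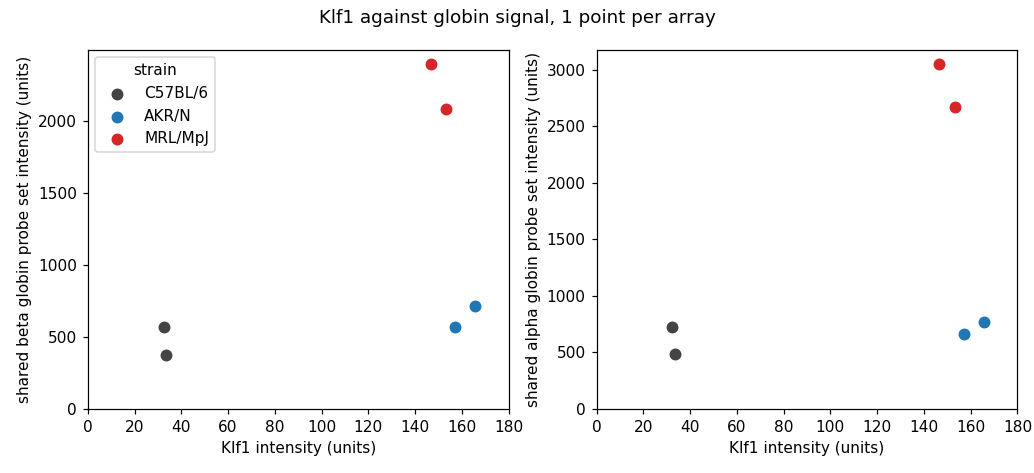
Klf1 intensity (units, x axis) against the beta globin set 1417184_s_at (left) and the alpha globin set 1452757_s_at (right), each in units, with 1 point per array coloured by strain. C57BL/6 and AKR/N differ along the Klf1 axis at beta globin values of 377 to 717 units, and MRL/MpJ stands apart from AKR/N along the globin axis.

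Markers of other blood cells were not highest in MRL/MpJ, where the globin sets were. The 7 neutrophil markers, of which 4 lay below the 40th percentile on every array, summed to 133 to 139 units in C57BL/6, 80.9 to 88.6 units in AKR/N and 91.7 to 92.3 units in MRL/MpJ. Platelet and megakaryocyte markers summed to 180 to 203, 144 to 161 and 122 to 144 units in the same strains, with 2 of 5 measured below that percentile throughout, and T and B cell markers to 95.4 to 108, 47.3 to 83.1 and 72.7 to 83.3 units, with 3 of 6 below it. In MRL/MpJ against C57BL/6, Pf4 of platelets fell by 0.54 (limma adjusted p = 0.0411, lost in 9 of 15 alternatives) and Mpo of neutrophils by 0.84 (adjusted p = 0.0490, lost in 12 of 15), both lost on leaving out any 1 array other than C57BL/6 replicate 2. Endothelial markers overlapped between all strains, at 96.7 to 147 units. Sums of Leydig cell markers, which are of another lineage, were lowest in C57BL/6, as Klf1 was. They were 3140 to 3239 units in C57BL/6, 4922 to 5419 units in AKR/N and 5004 to 5210 units in MRL/MpJ. In each comparison with C57BL/6, 3 of 4 were called higher, beside 6.06% of all genes in MRL/MpJ and 6.33% in AKR/N. Cyp17a1, which gives most of the sum, and Star were called higher in both comparisons (Star in MRL/MpJ not without either MRL/MpJ array or C57BL/6 replicate 2, and in AKR/N not without AKR/N replicate 2 or C57BL/6 replicate 2), while Cyp11a1 was called in AKR/N alone and Hsd3b1 in MRL/MpJ alone. The part of these cells in the Klf1 and globin values was not tested.

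Over 6 lists of other red cell genes, 60 genes were tested of 93 listed. Against C57BL/6, 8 rose and 4 fell in MRL/MpJ, beside 6.06% and 6.08% of all genes (median log2 difference 0.11, against 0.01 over all genes). In AKR/N 8 rose and 3 fell, beside 6.33% and 5.45% (median 0.05, against 0.01). Between MRL/MpJ and AKR/N 1 was higher and 3 were lower in MRL/MpJ, beside 3.65% and 5.05% (median -0.01, against 0.01). Nothing particular to red cell genes is read from these counts. The 12, 11 and 4 calls were sensitive to single arrays. Removing C57BL/6 replicate 1 or 2 turned the 12 into 6 or 5, and removing MRL/MpJ replicate 1 or 2 into 5 or 4. The 11 fell to 5 on removing either AKR/N array and to 6 on removing C57BL/6 replicate 2. The 4 fell to 1 on removing either AKR/N array or MRL/MpJ replicate 1 and to 2 on removing the other MRL/MpJ array. A fit without the variance trend called 4, 5 and 1.

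In both comparisons with C57BL/6 the smallest adjusted p of these lists was that of Alad. This haem synthesis enzyme, the one after the Alas step, read 167 units on both C57BL/6 arrays, 504 and 511 units in AKR/N and 414 and 484 units in MRL/MpJ. It rose by 1.52 in AKR/N (limma adjusted p = 4.65e-06) and by 1.34 in MRL/MpJ (adjusted p = 1.21e-05), and both calls held in all 15 alternatives. Fech, which inserts iron into the haem ring, read 301 and 296 units in C57BL/6, 463 and 470 units in AKR/N and 523 and 536 units in MRL/MpJ, and rose by 0.62 (adjusted p = 0.000732) and 0.79 (adjusted p = 0.000127), also in all 15. On these probe sets both genes were, like Klf1, lowest in C57BL/6. Another Fech probe set (1418698_a_at) also rose, by 0.82 in AKR/N and 0.87 in MRL/MpJ. A further one (1449181_at) went the other way, at 96.4 and 95.3 units in C57BL/6 and 68.9 to 77.5 units elsewhere, and was not called. A dimmer Fech probe set (1427696_at) rose in MRL/MpJ alone, by 1.12 (adjusted p = 0.0398, lost in 7 of 14 alternatives).

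The other called haem genes differed from that pattern or, as Fech did, had probe sets that disagreed. Slc25a38, a mitochondrial glycine carrier needed for haem, read 62.0 and 66.0 units in MRL/MpJ and 132 to 173 units on the other arrays, and fell by 1.06 in MRL/MpJ against C57BL/6 (limma adjusted p = 0.00108). Ppox, the enzyme before Fech, fell by 0.76 in MRL/MpJ (adjusted p = 0.0453), a call lost in 11 of 14 alternatives, among them the fits without any 1 of the 6 arrays. Ppox read 16.6 and 15.7 units in MRL/MpJ, below the 40th percentile, and passed the signal filter through C57BL/6 and AKR/N, where it is high. Nothing is read from its call. Alas1, the housekeeping relative of Alas2, had probe sets that disagreed: the brighter rose by 0.36 in MRL/MpJ and 0.40 in AKR/N, while the other (1455282_x_at) fell by 1.03 and 1.37. In all, 3 of 10 haem genes rose and 2 fell in MRL/MpJ against C57BL/6, beside 6.06% and 6.08% of all genes, and 3 rose and 0 fell in AKR/N, beside 6.33% and 5.45%.

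Among 11 tested erythroid transcription factors, partners or antagonists of Klf1, 2 rose and 2 fell in AKR/N and 0 rose and 1 fell in MRL/MpJ against C57BL/6. Over all genes these shares were 6.33% and 5.45% in AKR/N and 6.06% and 6.08% in MRL/MpJ. Gata1, the GATA factor of red cells, which is also made in Sertoli cells, read 70.3 to 147 units over the 6 arrays with overlapping strains and was not called. Gata2, a GATA factor of earlier blood precursors, rose by 0.61 in AKR/N (limma adjusted p = 0.00379), from 140 and 133 units to 217 and 218 units. Its dimmer probe set (1450333_a_at) differed by 0.49 and was not called. Ldb1, a bridging cofactor of GATA1 complexes, rose by 0.82 in AKR/N (adjusted p = 0.0277, lost in 5 of 15 alternatives, which include leaving out either array of AKR/N or of C57BL/6). Bcl11a, a repressor of fetal globin genes, fell by 0.70 in AKR/N (adjusted p = 0.0166, lost without either AKR/N array or C57BL/6 replicate 2). Other tested Bcl11a probe sets were also lower in AKR/N, and none was called. Cbfa2t3, a corepressor, read 38.1 and 68.3 units in C57BL/6 and 5.54 to 15.2 units elsewhere, below the 40th percentile. The differences were -1.39 in MRL/MpJ and -1.38 in AKR/N, and at this signal the size is loose, from -2.34 to -0.65 over the alternatives. Both were counted above as falls, calls lost without MRL/MpJ replicate 2 and AKR/N replicate 1 in turn, and both with 1 unit added. The probe set passed the signal filter through C57BL/6 alone, where it is high, so nothing is read from these calls. A second tested Cbfa2t3 probe set (1418582_at) was not called, with differences of -0.41 in MRL/MpJ and -0.42 in AKR/N.

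Of 17 tested genes of the red cell membrane and skeleton 1 rose in MRL/MpJ and 2 in AKR/N against C57BL/6, beside 6.06% and 6.33% of all genes, and none fell. Cd47, a surface protein found on many cells, rose by 0.66 in AKR/N (limma adjusted p = 0.00732, lost without AKR/N replicate 2) and by 0.47 in MRL/MpJ (adjusted p = 0.0392, lost in 9 of 15 alternatives). Slc2a1, a glucose transporter, rose by 0.55 in AKR/N (adjusted p = 0.0403, lost in 9 of 15, among them leaving out any 1 array). In these comparisons the other tested probe sets of Cd47 and Slc2a1 were also higher, and none was called. Of 10 iron genes 1 was called by its brightest probe set: Fth1, a ferritin subunit, rose in MRL/MpJ by 0.26 (adjusted p = 0.0462, lost in 10 of 15, among them leaving out any 1 array), beside 6.06% of all genes. Its other probe set (1448771_a_at) rose by 0.40 in MRL/MpJ (adjusted p = 0.00209, lost in 1 of 15) and by 0.31 in AKR/N (adjusted p = 0.00898, lost in 4 of 15, among them leaving out either AKR/N array or C57BL/6 replicate 2). The only tested globin probe set with a single symbol among the lists, for Hba-a2 (1427219_at), read 19.0 to 47.2 units and was not called.

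In the list of erythroid receptors, enzymes and maturation genes, 3 of 11 rose and 1 fell in MRL/MpJ, and 1 rose and 1 fell in AKR/N, against C57BL/6. Over all genes the shares were 6.06% and 6.08% in MRL/MpJ and 6.33% and 5.45% in AKR/N. Kit, the stem cell factor receptor, which germ cells and Leydig cells also carry, rose by 0.58 in MRL/MpJ (limma adjusted p = 0.0107, lost without either MRL/MpJ array or C57BL/6 replicate 2). Bpgm, which makes the red cell's 2,3-bisphosphoglycerate, fell by 0.37 in MRL/MpJ against C57BL/6 (adjusted p = 0.0115, lost without C57BL/6 replicate 2 or MRL/MpJ replicate 1). Other Bpgm probe sets lay at -0.05 (1415865_s_at) and -0.53 (1415864_at) in MRL/MpJ against C57BL/6 and were not called. Blvrb, a biliverdin reductase, passed the signal filter only through MRL/MpJ and AKR/N replicate 1, where it is high. Nothing is read from its call, counted above. It read 13.3 and 5.82 units in C57BL/6, below the 40th percentile, and 42.0 and 30.5 units in MRL/MpJ. It rose by 1.04 (adjusted p = 0.0382, lost in 8 of 14 alternatives, among them leaving out either MRL/MpJ array, AKR/N replicate 1 or C57BL/6 replicate 2), a size that ran from 0.45 to 1.90 over them. Gclc, of glutathione synthesis, fell by 0.59 in AKR/N (adjusted p = 0.0115, lost without AKR/N replicate 1 or C57BL/6 replicate 2). The dimmer Gclc probe set (1455959_s_at) differed by -0.36 in AKR/N and was not called. Prdx2, a peroxidase abundant in red cells, is described with the Klf1 neighbours.

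**Figure D4:**
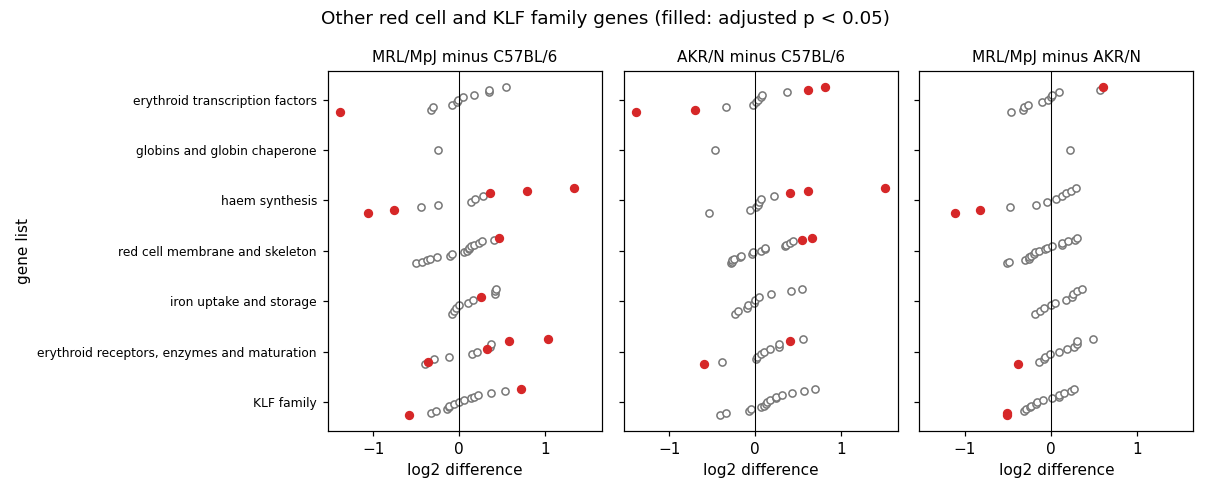
Log2 difference of each tested gene of 6 red cell lists and of the KLF family, 1 panel per comparison; filled red points have a limma adjusted p under 0.05, open points do not, and the vertical spread within a list only separates points. Each gene is shown by its brightest probe set. Most of the 60 red cell genes are open points, Alad is the rightmost haem synthesis point in both comparisons with C57BL/6, and all KLF points lie within 0.72 of 0. Klf1, chosen on these contrasts, differs by 1.76 and 1.86.

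Other members of the KLF family differed less from C57BL/6 than Klf1, which was itself chosen on these contrasts. Nothing is read from that comparison. Of 15 tested by their brightest probe set, 1 rose and 1 fell in MRL/MpJ against C57BL/6, beside 6.06% and 6.08% of all genes. None was called in AKR/N against C57BL/6, and 2 were lower and 0 higher in MRL/MpJ than in AKR/N, beside 5.05% and 3.65%. The largest difference of these probe sets from C57BL/6 was 0.72. Klf15, a factor of glucocorticoid response, had that value in MRL/MpJ (limma adjusted p = 0.0339, lost in 8 of 14 alternatives, among them leaving out any 1 array). Klf9, another hormone-responsive factor, read 292 and 242 units in MRL/MpJ and 378 to 416 units elsewhere, and fell by 0.58 against C57BL/6 (adjusted p = 0.00470) on its brightest probe set. Its 6 probe sets disagreed: 1456341_a_at fell by 0.80 in MRL/MpJ (adjusted p = 0.00190), while 1428289_at was also low in AKR/N, at 172 and 193 units against 269 and 283 units in C57BL/6, and fell there by 0.56 (adjusted p = 0.00613). Klf4, a factor of post-meiotic germ cells and Sertoli cells, was lower in MRL/MpJ than in AKR/N, a difference of -0.52 (adjusted p = 0.0123, lost without either AKR/N array or MRL/MpJ replicate 2).

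Genes next to Klf1 on its chromosome, taken as the 4 nearest measured genes on each side in RefSeq order, are described by their brightest probe set. By that measure each differed less from C57BL/6 than Klf1 did, but Klf1 was chosen on these contrasts, so nothing is read from that. Farsa, a subunit of phenylalanyl-tRNA synthetase, showed the largest rise of the 8 by that measure. It read 194 and 207 units in C57BL/6, 387 and 350 units in AKR/N and 391 and 421 units in MRL/MpJ. It rose by 0.83 in AKR/N (limma adjusted p = 0.000332) and by 0.96 in MRL/MpJ (adjusted p = 0.000114). Both calls held in all 15 alternatives. Dimmer Farsa probe sets, at 4.26 to 48.3 units, disagreed in direction, and none was called. Their differences from C57BL/6 were 0.47, 0.32 and -1.08 in MRL/MpJ and, in the same order, 0.37, -0.18 and -0.32 in AKR/N. Syce2, of the meiotic synaptonemal complex, rose by 0.38 in AKR/N (adjusted p = 0.00343) and 0.27 in MRL/MpJ (adjusted p = 0.0204, lost without either MRL/MpJ array or C57BL/6 replicate 2). The nearest measured genes, Gcdh before and Dnase2a after Klf1, were dim, at 20.4 to 36.6 and 34.4 to 61.7 units, and were not called.

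Prdx2, the farthest of the 4 on the other side, had probe sets that went opposite ways. The brighter (1418506_a_at) rose by 0.41 in AKR/N (limma adjusted p = 0.00737, lost without either AKR/N array) and 0.33 in MRL/MpJ (adjusted p = 0.0226, lost without any 1 array of MRL/MpJ or C57BL/6). The other (1430979_a_at) read 126 and 149 units in C57BL/6 and 12.6 to 21.4 units on the other 4 arrays, and fell by 2.40 in AKR/N and by 2.10 in MRL/MpJ. In each comparison with C57BL/6, 3 of the 8 neighbours rose and none fell, beside the 6.06% and 6.33% of all genes that rose. Between MRL/MpJ and AKR/N only Rnaseh2a was called, lower in MRL/MpJ, with a difference of -0.25 (adjusted p = 0.0284, lost without any 1 array of either strain).

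**Figure D5:**
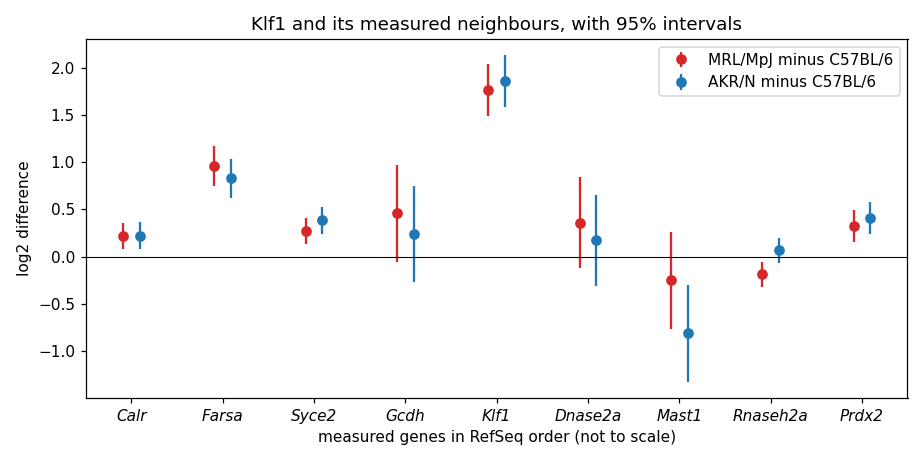
Log2 difference from C57BL/6 (points) with 95% interval (lines) for Klf1 and the 4 nearest measured genes on each side, in chromosome order and not to scale; red is MRL/MpJ and blue AKR/N, with 2 arrays per strain. Klf1 lies at 1.76 and 1.86, Farsa at 0.96 and 0.83, and the other neighbours between -0.81 and 0.46, each by its brightest probe set.

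Among 3486 probe sets compared, the 5 genes with the highest Pearson correlation over the 6 arrays were Hsd17b3 (r = 0.9993), Slc7a5 (0.9993), Chchd3 (0.9990), Lpo (0.9989) and Grin2b (0.9988). With a low and a high cluster of arrays these values mostly restate the C57BL/6 step and are a description, with no order to be read among them. Hsd17b3, the last enzyme of testosterone synthesis in Leydig cells, read 178 and 181 units in C57BL/6, 492 and 520 units in AKR/N and 474 and 465 units in MRL/MpJ. Slc7a5, an amino acid transporter, read 364 and 361 units in C57BL/6 and 828 to 895 units elsewhere. Lpo, a peroxidase of secretions, was near the floor in C57BL/6 at 2.30 and 4.88 units and read 120 to 162 units on the other 4 arrays.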

How the data were processed

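The deposited table holds 1 intensity per probe set and array, as the authors deposited it. The mean after trimming 2% at each end was 125.001 on every array, which points to scaling before deposit, and no source used here names the software or genome build. Gene symbols came from the platform's annotation: 34945 probe sets list 1 symbol, 932 several and 9160 none, beside 64 controls, which were left out of the fit. log2(intensity + 16) of the 6 arrays was fitted in 1 model by limma 3.58.1, under R 4.3.3 (eBayes with variance trend, 3 residual degrees of freedom) and p-values were adjusted by Benjamini-Hochberg over 29692 probe sets. A gene was represented by its tested probe set of highest mean. The fit was tested on simulated data. The members and gene lists were chosen with earlier results of these data known. Named list genes were the called ones, up to 6 a list in order of adjusted p, and, in a list without calls, the 2 brightest genes; Gata1, Pf4, Mpo, the Leydig markers, further probe sets of a called gene and the shared globin sets were named after their values were seen. The number of arrays limits precision. Alternatives are in the closing section.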

Additional observations from a re-analysis of the deposited data

How the results depend on the processing

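Over the 15 alternatives the difference of Klf1 from C57BL/6 ran from 1.14 to 2.15 in MRL/MpJ and from 1.22 to 2.26 in AKR/N. That of Hbb-b2 ran from 0.65 to 2.91 and from 0.33 to 1.97 in the 14 in which it was tested. For both genes the C57BL/6 arrays do not overlap the others, so only these sizes are read and not the kept direction. Of 829 alternative values for called list genes and neighbours, 647 kept the call, 182 lost it and 0 changed sign. Without the variance trend 1212, 1138 and 421 probe sets were called in MRL/MpJ against C57BL/6, AKR/N against C57BL/6 and MRL/MpJ against AKR/N (2975, 2960 and 2052 as reported), and 4, 5 and 1 red cell list genes. Without a filter on dim probe sets, MRL/MpJ against AKR/N had 1327 probe sets and 2 list genes. With the mean of a gene's probe sets, 7 list genes were called in AKR/N against C57BL/6 and 2 in MRL/MpJ against AKR/N. Leaving out 1 array at a time gave 1463 to 2538, 1270 to 2607 and 657 to 2173 probe sets and 4 to 9, 5 to 11 and 1 to 4 list genes. Centring each array on its median made 39.4% of probe set calls lower in MRL/MpJ against C57BL/6 and 39.7% in AKR/N against C57BL/6, where 49.4% and 49.0% were. The cause of these shifts was not tested. Same-numbered arrays did not deviate together (correlations 0.0425 to 0.0493), so the numbers do not pair them; with a replicate block 3510, 3492 and 2549 probe sets and 13, 13 and 5 list genes were called. Signal over background limits Slc4a1, Epb42 and Hbb-b2.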
